A study of Danio rerio with 14 samples.

Results

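The proteasome subunit gene psmb1 was studied here in cranial sox10+ cells of zebrafish larvae, by setting 3 libraries from psmb1 mutants beside 4 libraries from pooled wild-type and heterozygous larvae. These 7 libraries were taken by their labels from the 14 of the series, and the other 7 came from mylz2+ muscle cells of the same kind of larvae. The mutants were psmb1-/-, homozygous for the hi2939 allele, a retroviral insertion in the first intron, and the comparison group was psmb1+/+ and psmb1+/- larvae together, so a difference from heterozygotes alone could not be read. All larvae were untreated, carried a Tg(sox10:kaede) transgene and were 72 hpf. Each library held 7000 kaede-positive cells sorted from a pool of dissected heads, so single larvae were not resolved.

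The 26S proteasome degrades ubiquitin-tagged proteins in a 20S barrel of alpha and beta subunits, whose active sites sit on beta subunits, and a 19S cap of ATPases and other subunits unfolds and feeds in the substrate. Cells that lose proteasome capacity are known to raise transcription of many subunit genes through the factor Nfe2l1. Sox10 marks the neural crest and several of its derivatives, and the sox10:kaede line labels cranial chondrocytes as well as glia, pigment cells and the ear. Chondrocytes of this age secrete a matrix of type II, IX and XI collagens, matrilins and aggrecan.

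The libraries held 54824619 to 72034939 counted reads and 20499 to 23889 genes with at least 1 read. Levels are given as TMM-scaled CPM, each gene's reads scaled to library size with edgeR's TMM factors, in the order replicates 1 to 4 for wild-type/heterozygous and replicates 1, 3 and 4 for mutants, and a value against another is wild-type/heterozygous against mutant. CPM is not corrected for gene length, so levels were compared between libraries and not between genes. Gene symbols are those of the table used here, many of them in capitals, and an Ensembl identifier is added where 2 zebrafish genes share a symbol. A gene was called when edgeR's quasi-likelihood test gave an adjusted p under 0.05 over the 21476 genes tested. Fold changes are on the log2 scale, mutant against wild-type/heterozygous, with the standard error (SE) over n = 4 and n = 3 libraries.

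The targeted gene did not separate the genotypes in these counts. PSMB1 (ENSDARG00000009640) was at 57.6, 81.9, 87.8 and 92.3 CPM in wild-type/heterozygous and 90.4, 69.1 and 87.5 CPM in mutant libraries. The groups overlapped, and the log2 fold change was 0.04 ± 0.20 (SE, adjusted p = 0.956). Genotypes therefore rest on the labels. In the mylz2+ cells the same gene was lower in mutants, with a log2 fold change of -0.85 (adjusted p = 0.00161), and the difference between the cell types did not pass the test (interaction adjusted p = 0.123).

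Chondrocyte markers were high in every library, as was SOX10, which also marks other neural crest derivatives. COL2A1 (ENSDARG00000069093) ranged from 32467 to 78948 CPM, MATN1 from 10857 to 34996 CPM and SOX10 from 819 to 1272 CPM over the 7 libraries. Muscle genes differed most within a group, with 31 tested genes summing to 524.5 to 3403 CPM in wild-type/heterozygous and 92.5 to 1003 CPM in mutant libraries, the highest being wild-type/heterozygous replicate 1. The summed neuron and retina markers stood at 5482 CPM in wild-type/heterozygous replicate 2 and at 2068 to 2574 CPM in the other 3. Lens, blood and immune and endothelial lists summed to under 176 CPM each in every library.

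Of the 21476 genes, 797 were called (3.71%), 452 higher and 345 lower in mutants, and 771 of these calls fell on the 11506 genes with a mean of at least 10 CPM in a genotype. Higher genes were 56.7% of the calls, a share that rose to 71.9% with library totals in place of TMM, which moved the median of all genes by 0.13 on the log2 scale, and was 45.4% in DESeq2. Among the well-expressed genes 437 were higher (3.8%) and 334 lower (2.9%). Changes of at least 2-fold made up 353 of the higher and 272 of the lower calls, and 95 and 81 were at least 4-fold. In each of the 797 called genes the 3 mutant libraries lay wholly above or wholly below the 4 wild-type/heterozygous libraries. Only genes not called could therefore overlap, and this is remarked on below for some of them. Of the 2036 genes with at least 100 CPM in a genotype, 193 were higher (9.48%) and 138 lower (6.78%). The number of calls moved with the libraries used: it ranged from 293, without mutant replicate 1, to 1018, without wild-type/heterozygous replicate 4, and 242 genes were called in all 7 such fits.

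Of the 30 lists of genes examined, the proteasome subunit lists had the largest shares of rising genes. In the lists of 20S and 19S subunits, 41 of 43 genes were called higher against 2.1% of all genes tested, and their median log2 fold change was 1.90, beside -0.02 over all genes. All 43 had a positive value (49% of all genes) and 42 an unadjusted p under 0.05 (7.74% of all genes). The summed level of the 43 genes was 2928 to 4282 CPM in wild-type/heterozygous and 12680 to 14310 CPM in mutant libraries. With any 1 library left out, 39 to 41 were called, and DESeq2 called 41, against 5.13% of all genes called higher by it.

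In the 20S barrel, all 10 alpha subunit genes and 6 of 7 beta subunit genes were called higher. PSMA3 was at 113, 132, 162 and 189 CPM in wild-type/heterozygous and 619, 562 and 609 CPM in mutant libraries (log2 fold change 2.00 ± 0.19 SE, adjusted p = 0.000615). PSMA1 stood at 88.3, 100.1, 130.2 and 173 CPM against 509, 442 and 457 CPM and PSMA4 at 71.0, 70.5, 126 and 87.9 CPM against 424, 341 and 386 CPM. PSMA8 and PSMA6 rose 4.61-fold and 2.87-fold. For PSMA3, PSMA1 and PSMA4, as for every gene called higher, the lowest mutant value was over the highest wild-type/heterozygous value.

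The 3 catalytic beta subunits were among these genes. Chymotrypsin-like PSMB5 was at 86.0, 119, 154 and 191 CPM in wild-type/heterozygous and 549, 460.1 and 506 CPM in mutants (log2 fold change 1.88 ± 0.25 SE, adjusted p = 0.00327). Trypsin-like PSMB7 was at 122, 128, 186 and 204 CPM against 832, 640.1 and 743 CPM (log2 fold change 2.21 ± 0.22 SE, adjusted p = 0.000675). Caspase-like PSMB6 was at 50.4, 54.6, 75.9 and 119 CPM against 281, 258 and 291 CPM (log2 fold change 1.89 ± 0.28 SE, adjusted p = 0.00605). The non-catalytic PSMB2, PSMB3 and PSMB4 rose 4.80-fold, 3.89-fold and 5.15-fold. PSMB1, also non-catalytic, was the only beta subunit gene not called, while the other 6 had log2 fold changes of 1.88 to 2.36.

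Genes of the 19S cap rose as well. All 7 genes for the ATPases, the ring that unfolds substrates, were higher, with log2 fold changes of 1.61 to 2.04. PSMC6 was at 165, 162, 192 and 195 CPM in wild-type/heterozygous and 642, 637 and 551 CPM in mutant libraries (log2 fold change 1.77 ± 0.15 SE, adjusted p = 0.000430). PSMC4 was at 107, 114, 197 and 183 CPM against 589, 508 and 559.9 CPM. PSMC2, PSMC3 and psmc1b rose 3.57-fold, 3.05-fold and 4.12-fold. Of the 19 non-ATPase genes 18 were higher, among them PSMD3 (3.38-fold) and PSMD8 (3.1-fold). PSMD1, a scaffold of the cap, was at 248, 231, 271 and 267 CPM against 1122, 1067 and 1155 CPM (log2 fold change 2.13 ± 0.14 SE, adjusted p = 0.000157). PSMD14, the deubiquitinase of the cap, was at 71.2, 74.9, 66.9 and 87.2 CPM against 386, 339 and 343 CPM (log2 fold change 2.25 ± 0.15 SE, adjusted p = 0.000162). PSMD9, an assembly chaperone on the list and its only member not called, was at 14.9, 20.8, 26.3 and 22.0 CPM against 29.2, 29.2 and 40.8 CPM (log2 fold change 0.65 ± 0.26 SE, adjusted p = 0.232).

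**Figure D1:**
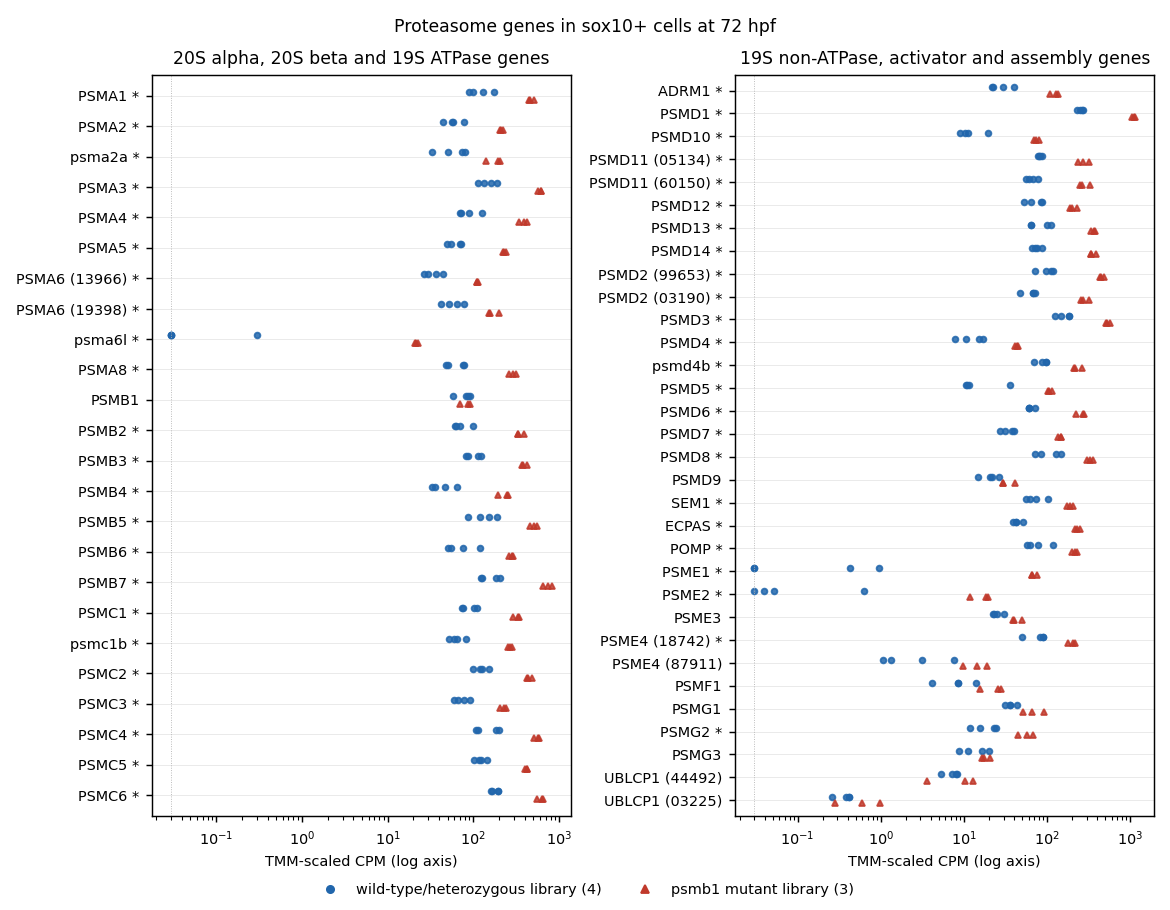
Levels of proteasome genes in single sox10+ libraries, as TMM-scaled CPM on a log axis, with circles for the 4 wild-type/heterozygous and triangles for the 3 mutant libraries. An asterisk marks an adjusted p under 0.05, digits in brackets end the Ensembl identifier, and values under 0.03 CPM are drawn at the dotted line at 0.03. PSMB1 is the gene among the beta subunits whose groups overlap.

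Genes for activators and assembly factors were called higher in 6 of 13 cases, against 2.1% of all genes, with a median log2 fold change of 1.39. ECPAS, an adaptor and scaffold of the 26S proteasome, was at 42.2, 39.2, 52.1 and 42.1 CPM in wild-type/heterozygous and 219, 229 and 251 CPM in mutants (log2 fold change 2.41 ± 0.16 SE, adjusted p = 0.000157). POMP, the maturation factor of the 20S barrel, rose 2.72-fold (adjusted p = 0.0110), the assembly chaperone PSMG2 2.98-fold (adjusted p = 0.0163) and PSME4, the PA200 activator (ENSDARG00000018742), 2.60-fold (adjusted p = 0.00755). With 1 library left out, 3 of the 6 called genes kept their calls in all 7 fits. POMP and PSMG2 were called in 5, and PSME2, described below, in 4.

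Among the activator genes PSME3 was not called. The PA28 activator genes PSME1 and PSME2 were near zero in wild-type/heterozygous cells. PSME1 was at 0.951, 0.430, 0.0172 and 0 CPM there and 76.2, 65.1 and 66.0 CPM in mutants (log2 fold change 7.64 ± 1.00 SE, adjusted p = 0.00325). PSME2 was at 0.0396, 0.636, 0.0516 and 0 CPM against 19.4, 12.0 and 18.6 CPM (log2 fold change 6.47 ± 1.203 SE, adjusted p = 0.0181). The alpha subunit gene psma6l, singled out after its values were seen, had the same form, with 0.0198, 0.302, 0.0172 and 0 CPM against 21.5, 21.0 and 22.6 CPM (log2 fold change 7.90 ± 1.06 SE, adjusted p = 0.00365). In wild-type/heterozygous libraries many of these values were at or under the level of 3 reads, which is 0.0416 to 0.0547 CPM, so the fitted folds of these 3 genes depend on the prior count. Of 7 listed immunoproteasome and related beta subunit genes 3 were tested. None was called by edgeR or DESeq2, and none had an unadjusted p under 0.05. Their log2 fold changes ran from -0.11 to 2.36, with a median of 1.80. They summed to only 10.2 to 25.5 CPM in wild-type/heterozygous and 13.7 to 22.9 CPM in mutant libraries, so a rise may have been missed.

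Ubiquitin, p97 and shuttle factor genes rose in 13 of 24 cases, against 2.1% of all genes, and none fell. VCP, the p97 ATPase that extracts ubiquitinated proteins, was at 365, 417, 502 and 383 CPM in wild-type/heterozygous and 1548, 1474 and 1481 CPM in mutant libraries (log2 fold change 1.85 ± 0.15 SE, adjusted p = 0.000430). Its cofactor genes UFD1 and NSFL1C rose as well, UFD1 5-fold (adjusted p = 0.000621) and NSFL1C 3.53-fold (adjusted p = 0.000474). The ubiquitin-activating enzyme gene uba1 was at 267, 337, 319 and 281 CPM against 823, 704 and 842 CPM (log2 fold change 1.39 ± 0.15 SE, adjusted p = 0.00120). The polyubiquitin gene ubb was at 1374, 1038, 1068 and 1163 CPM against 2149.9, 1743 and 2532 CPM (log2 fold change 0.88 ± 0.17 SE, adjusted p = 0.0232). UBQLN4, a ubiquilin that shuttles substrates, rose 2.21-fold and zfand5b 2.25-fold.

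SQSTM1, the p62 receptor for ubiquitinated cargo in autophagy, had the smallest adjusted p of this list. It was at 36.1, 33.7, 33.4 and 42.7 CPM in wild-type/heterozygous and 678, 610.3 and 732 CPM in mutants, an 18.5-fold rise (log2 fold change 4.21 ± 0.17 SE, adjusted p = 6.03e-06). The transcription factor gene nfe2l1b, named for its role after its values were seen, was at 38.9, 52.8, 51.0 and 43.6 CPM against 76.9, 83.5 and 82.4 CPM (log2 fold change 0.80 ± 0.17 SE, adjusted p = 0.0343), and that call was lost in 6 of the 7 fits with a library left out. In the autophagy list itself 2 of 24 genes were higher (2.1% of all genes), CTSB, a lysosomal protease (2.44-fold), and ATG5 (1.84-fold), with a median log2 fold change of 0.14. Neither was called in all 7 leave-one-out fits. DESeq2 called 7 of the 24 higher (5.13% of all genes), and 7 were higher at an unadjusted p under 0.05 (7.74% of all genes). None was lower by either measure. MAP1LC3B, an autophagosome protein gene, had a log2 fold change of -0.15 ± 0.15 (SE, adjusted p = 0.742).

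Cytosolic chaperone genes were higher in 15 of 43 cases, against 2.1% of all genes, with a median log2 fold change of 0.73 and none lower. Subunits of the TRiC chaperonin took part, CCT3 at 197, 193, 240.5 and 262 CPM in wild-type/heterozygous and 526, 459 and 533 CPM in mutants (log2 fold change 1.18 ± 0.16 SE, adjusted p = 0.00407), CCT5 1.94-fold up and CCT8 1.75-fold up. STIP1, which couples Hsp70 to Hsp90, was at 179.9, 162, 203 and 140.1 CPM against 418, 431 and 466 CPM (log2 fold change 1.35 ± 0.16 SE, adjusted p = 0.00205). Both genes with the symbol HSPA4, an exchange factor of Hsp70, rose, ENSDARG00000004754 by 2.39-fold and ENSDARG00000018989 by 1.91-fold, as did DNAJA2 (ENSDARG00000104066) by 1.98-fold. Of the 15 genes, 6 were called in all 7 leave-one-out fits.

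A pair of genes is listed as HSPA8, for constitutive Hsp70, and 1 of them was called. ENSDARG00000037403 was at 7.63, 5.20, 0.138 and 8.34 CPM in wild-type/heterozygous and 431, 303 and 467 CPM in mutants (log2 fold change 6.23 ± 0.89 SE, adjusted p = 0.00514). ENSDARG00000068992, named after its values were seen, was at 1852, 2004, 2935 and 2750.0 CPM against 3919, 3163 and 3789 CPM (log2 fold change 0.60 ± 0.19 SE, adjusted p = 0.130). The stress-inducible genes hsp70l and hsp70.3, also named after seeing their values, overlapped between the genotypes. They stood at 5439, 3449, 3471 and 3953 CPM against 2639.7, 3558 and 5871 CPM (adjusted p = 0.987) and 7253, 4709, 4618 and 5029 CPM against 5065, 6074 and 6990.2 CPM (adjusted p = 0.801). By the paper's methods, heads were dissociated at a higher temperature than that at which embryos were raised. The effect of this step on the levels of these genes was not tested.

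Of 34 ER stress genes 1 was higher and none lower, a share near the 2.1% of all genes called higher. The gene was DERL1, of the ER-associated degradation channel (1.68-fold higher, adjusted p = 0.0491, not called in 6 of 7 leave-one-out fits), and the list median was -0.15. The ER chaperone gene HSPA5 was at 879.9, 906, 993 and 1028 CPM in wild-type/heterozygous and 1114, 1151 and 1333 CPM in mutants (log2 fold change 0.33 ± 0.14 SE, adjusted p = 0.270). XBP1, a transcription factor of the unfolded protein response, was at 495, 446, 574 and 635 CPM against 444, 413 and 484 CPM (log2 fold change -0.27 ± 0.16 SE, adjusted p = 0.504). HSP90B1, another ER chaperone gene, had a log2 fold change of -0.32 ± 0.15 (SE, adjusted p = 0.310). These counts do not resolve xbp1 splicing. DESeq2 called 1 of the 34 genes higher (5.13% of all genes) and 4 lower (6.18% of all genes). In the integrated stress response list 1 of 22 genes rose (2.1% of all genes), the transcription factor CEBPB (2.91-fold, adjusted p = 0.0410), and 1 fell, PHGDH, which opens serine synthesis. With 1 library left out CEBPB was called in 2 of 7 fits and PHGDH in all 7. PHGDH was at 259, 242, 259 and 356 CPM against 121, 113 and 125 CPM (log2 fold change -1.22 ± 0.18 SE, adjusted p = 0.00533). PSAT1, the next enzyme, was at 209.9, 189.6, 282 and 383 CPM against 115, 100.4 and 171 CPM (log2 fold change -1.05 ± 0.28 SE, adjusted p = 0.0750). The activator gene atf4b had a log2 fold change of 0.52 ± 0.16 (SE, adjusted p = 0.115). In DESeq2, 5 of the 22 genes were higher (5.13% of all genes) and 3 lower (6.18% of all genes). At an unadjusted p under 0.05, 5 were higher (7.74% of all genes) and 5 lower (8.81% of all genes).

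In the apoptosis and DNA damage list 4 of 24 genes were higher, against 2.1% of all genes, and none lower. The cyclin gene CCNG1 was at 619, 574, 598 and 662 CPM in wild-type/heterozygous and 1054, 946 and 1115 CPM in mutants (log2 fold change 0.76 ± 0.14 SE, adjusted p = 0.0154). The ribosomal protein paralog gene rps27l was at 46.2, 53.1, 57.0 and 81.6 CPM against 156, 143 and 148 CPM (log2 fold change 1.32 ± 0.20 SE, adjusted p = 0.00737). Of the 4 only rps27l was called in all 7 leave-one-out fits.

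Antioxidant genes were higher in 7 of 22 cases, against 2.1% of all genes, with a median of 0.76 and none lower. Heme oxygenase HMOX1 was at 5.47, 3.52, 2.91 and 4.23 CPM in wild-type/heterozygous and 22.7, 21.1 and 16.6 CPM in mutants (log2 fold change 2.32 ± 0.35 SE, adjusted p = 0.00637). The glutathione enzymes GSR, which recycles glutathione, and GCLM, which helps make it, rose 3.18-fold and 2.29-fold. The peroxiredoxin gene prdx1 was at 31.2, 38.1, 51.9 and 63.5 CPM against 135, 132 and 139.7 CPM (log2 fold change 1.56 ± 0.24 SE, adjusted p = 0.00682). The gene mgst3b was at 101, 108, 112 and 161 CPM against 323, 279.6 and 331 CPM (log2 fold change 1.37 ± 0.19 SE, adjusted p = 0.00438), and keap1a, a sensor that restrains Nrf2, rose 1.91-fold (adjusted p = 0.0117) and the microsomal glutathione transferase gene MGST1 2.95-fold (adjusted p = 0.0328). Of the 7, 3 were called in all leave-one-out fits.

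**Figure D2:**
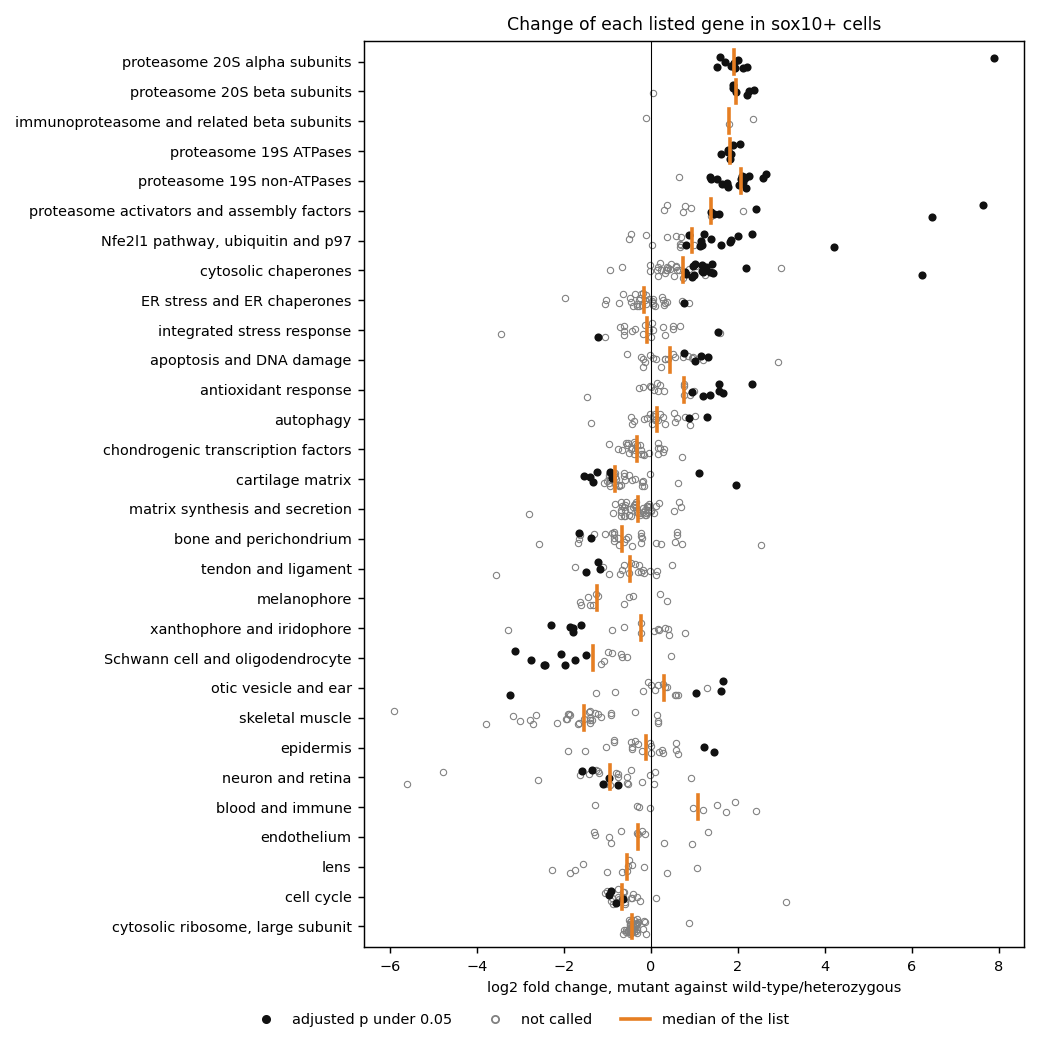
The log2 fold change of every tested gene of the 30 lists, mutant against wild-type/heterozygous sox10+ cells, with filled points at an adjusted p under 0.05, open points for genes not called and an orange bar at the median of each list. The 4 proteasome subunit lists have medians of 1.83 to 2.08, the cartilage matrix list -0.82 and the Schwann cell and oligodendrocyte list -1.33.

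Cartilage matrix genes lay below the wild-type/heterozygous level as a group of small shifts, few of which passed the test. Of 37 tested genes 6 were called lower, against 1.61% of all genes, and 2 higher, and the median log2 fold change was -0.82. In bulk samples, fewer cells of a type and less RNA per cell cannot be told apart, here and for every cell type marker that follows. A negative value was found in 34 of the 37 (51% of all genes), an unadjusted p under 0.05 with a lower level in 25 (8.81% of all genes), and 25 had all 3 mutant libraries under all 4 others (8.56% of all genes). The list took 15.4 to 21.8% of all reads in wild-type/heterozygous libraries and 9.60 to 13.4% in mutants. DESeq2 called 25 of the genes lower, against 6.18% of all genes, while edgeR with 1 library left out called 2, without mutant replicate 3, to 6.

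The 6 genes called lower fell by 1.86-fold to 2.92-fold. Snorc, a small proteoglycan-like membrane protein of chondrocytes, was at 932, 658, 663 and 1283 CPM in wild-type/heterozygous and 287, 375 and 451 CPM in mutants (log2 fold change -1.25 ± 0.27 SE, adjusted p = 0.0334). UCMA, a secreted cartilage matrix protein, was at 537, 369, 440.4 and 737 CPM against 146, 165 and 275 CPM (log2 fold change -1.41 ± 0.29 SE, adjusted p = 0.0284). The collagen XI chain gene col11a1b was at 358, 318, 399 and 308 CPM against 194, 161 and 185 CPM (log2 fold change -0.94 ± 0.16 SE, adjusted p = 0.0109). ECRG4 (ENSDARG00000056087) fell to 90.3, 104 and 114 CPM from 265, 214, 234 and 326 CPM (log2 fold change -1.34 ± 0.19 SE, adjusted p = 0.00465), and chad, the matrix protein chondroadherin, to 37.9, 65.4 and 56.1 CPM from 207, 149.9, 123 and 140.5 CPM (log2 fold change -1.55 ± 0.25 SE, adjusted p = 0.00869). HAPLN3, a link protein, had the smallest of these changes (adjusted p = 0.0255). ECRG4 and chad were called in all 7 leave-one-out fits.

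The versican genes, large proteoglycans, went the other way. The gene vcanb was at 207, 217, 269 and 268 CPM in wild-type/heterozygous and 607, 371 and 584 CPM in mutants (log2 fold change 1.12 ± 0.20 SE, adjusted p = 0.0153). The gene vcana was at 4.70, 5.07, 4.37 and 13.9 CPM against 29.9, 26.1 and 26.1 CPM (log2 fold change 1.97 ± 0.43 SE, adjusted p = 0.0363). Neither call held in all leave-one-out fits.

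The defining matrix genes did not pass the test although their groups were apart. COL2A1 (ENSDARG00000069093), a collagen II chain, was at 78948, 56921, 53537 and 66667 CPM in wild-type/heterozygous and 32467, 36765 and 46471 CPM in mutant libraries (log2 fold change -0.73 ± 0.19 SE, adjusted p = 0.0697). The other COL2A1 gene, ENSDARG00000011407, had a log2 fold change of -0.82 ± 0.23 (SE, adjusted p = 0.0927). MATN1 was at 34996, 21005, 20440.0 and 31049 CPM against 10857, 12924 and 17675 CPM (log2 fold change -0.96 ± 0.25 SE, adjusted p = 0.0674). The aggrecan gene acana was at 1316, 1042, 945 and 1099 CPM against 481, 672 and 751 CPM (log2 fold change -0.79 ± 0.19 SE, adjusted p = 0.0556). COL9A1 was at 15091, 10246, 10537 and 13288 CPM against 5561, 6578 and 8553 CPM (log2 fold change -0.83 ± 0.21 SE, adjusted p = 0.0578). DESeq2 gave these 5 genes adjusted p-values of 0.00103 to 0.00810. MATN4, named after its values were seen, was at 5150.0, 4793, 5068 and 4479 CPM against 4661, 4920.2 and 4896 CPM (log2 fold change -0.01 ± 0.13 SE, adjusted p = 0.982).

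Genes on the chondrogenic transcription factor list, which holds SOX10, were not called. None of 27 chondrogenic factor genes passed in edgeR, and the list median was -0.32. At an unadjusted p under 0.05, 5 were lower (8.81% of all genes) and none higher. SOX10 was at 1228, 1228, 1194 and 1272 CPM in wild-type/heterozygous and 819, 1005 and 1003 CPM in mutants (log2 fold change -0.39 ± 0.14 SE, adjusted p = 0.189), the only member DESeq2 called. SOX5 and SOX6, partners of Sox9, had log2 fold changes of -0.36 ± 0.20 and -0.53 ± 0.21 (SE, adjusted p = 0.431 and 0.236). The genes listed as SOX9 had estimates of opposite sign, -0.45 ± 0.25 for ENSDARG00000003293 and 0.28 ± 0.25 for ENSDARG00000043923, and BARX1 had -0.16 ± 0.29 (SE, adjusted p = 0.872).

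Genes for matrix synthesis and secretion had no call among 47 in edgeR and 6 in DESeq2, all lower (6.18% of all genes). At an unadjusted p under 0.05, 12 were lower (8.81% of all genes) and 2 higher (7.74% of all genes), and the median was -0.31. PLOD3, a collagen lysyl hydroxylase, had a log2 fold change of -0.51 ± 0.20 (SE, adjusted p = 0.238) and P4HA2, a collagen prolyl hydroxylase, of 0.53 ± 0.19 (SE, adjusted p = 0.181).

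**Figure D3:**
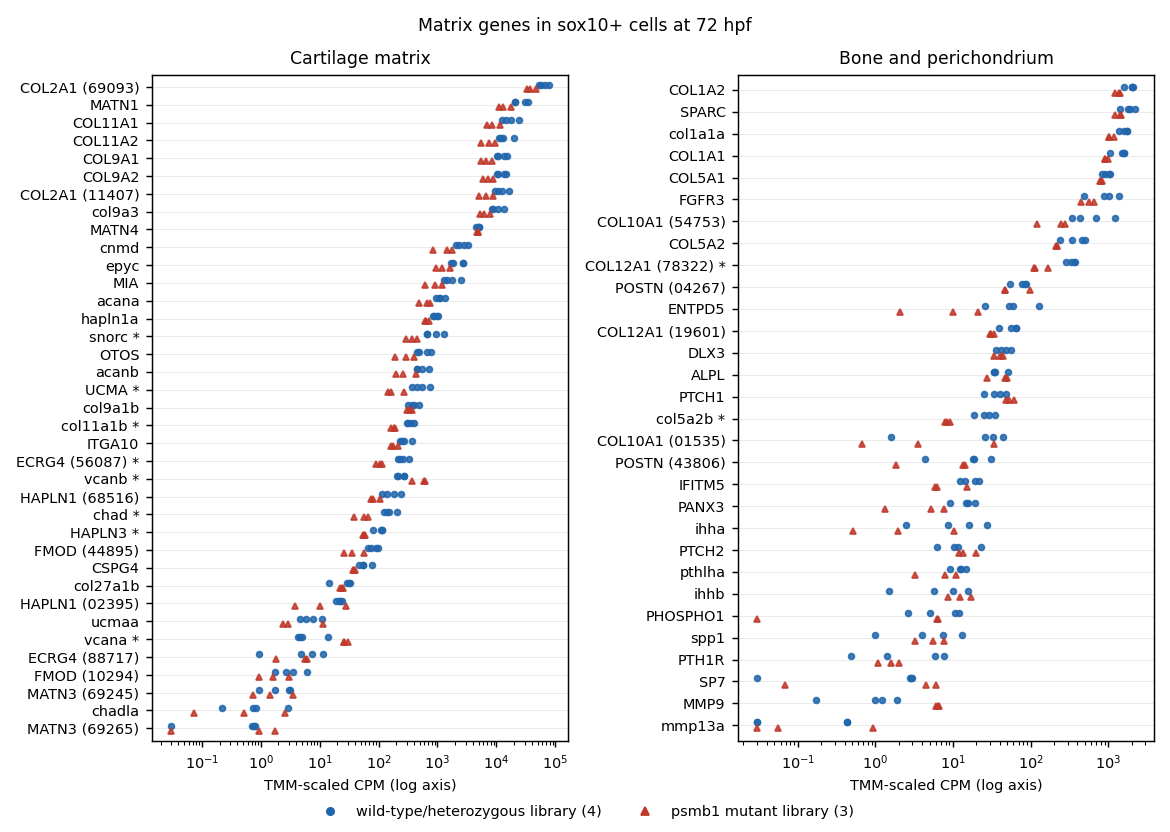
Levels of cartilage matrix and bone and perichondrium genes in single sox10+ libraries, as TMM-scaled CPM on a log axis, sorted by the wild-type/heterozygous mean, with circles for the 4 wild-type/heterozygous and triangles for the 3 mutant libraries. An asterisk marks an adjusted p under 0.05 and values under 0.03 CPM are drawn at 0.03. Most triangles of the cartilage list lie left of the circles, and those of vcanb and vcana lie right.

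Of 30 bone and perichondrium genes 2 were called lower (1.61% of all genes) and none higher. At an unadjusted p under 0.05, 12 were lower (8.81% of all genes) and 2 higher (7.74% of all genes). DESeq2 called 10 lower (6.18% of all genes) and 1 higher (5.13% of all genes). COL12A1 (ENSDARG00000078322), a collagen of dense connective tissue, was at 364, 287, 369 and 331 CPM in wild-type/heterozygous and 110.4, 112 and 169 CPM in mutants (log2 fold change -1.37 ± 0.20 SE, adjusted p = 0.00533). The collagen V chain gene col5a2b was at 28.8, 34.3, 24.7 and 18.8 CPM against 7.83, 8.43 and 9.04 CPM (log2 fold change -1.66 ± 0.29 SE, adjusted p = 0.0129). The type I collagen genes COL1A2, col1a1a and COL1A1 had log2 fold changes of -0.53 ± 0.15, -0.56 ± 0.15 and -0.61 ± 0.18 (SE), with adjusted p-values of 0.0937, 0.0693 and 0.100, and DESeq2 called all 3. Tendon and ligament genes were lower in 3 of 22 cases, against 1.61% of all genes. COL6A3, a collagen VI chain, was at 123, 118, 128 and 116 CPM against 58.6, 54.4 and 47.7 CPM (log2 fold change -1.18 ± 0.15 SE, adjusted p = 0.00324), the proteoglycan lumican gene LUM fell by 1.22 on the log2 scale (adjusted p = 0.0179), and the third, EGR2, is also on the Schwann cell list. With 1 library left out COL6A3 was called in all 7 fits, LUM in 5 and EGR2 in 1.

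Many genes of myelinating glia fell. Of 16 tested Schwann cell and oligodendrocyte genes 8 were lower, against 1.61% of all genes, and none higher, and the median log2 fold change was -1.33. The list summed to 3417 CPM in wild-type/heterozygous replicate 1 and 6333 to 7018 CPM in the other 3, and to 1287 to 1519 CPM in mutants. Leaving out 1 library gave 6 to 10 lower calls, the 10 without wild-type/heterozygous replicate 1, and 6 of the 8 genes were called in all 7 such fits.

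Genes of the myelin sheath and its program were among the 8. The myelin proteolipid gene plp1b was at 759, 1605, 1239 and 1282 CPM in wild-type/heterozygous and 148, 198 and 196 CPM in mutant libraries (log2 fold change -2.76 ± 0.26 SE, adjusted p = 0.000621). The myelin basic protein genes fell 5.46-fold (mbpa, 551, 1120.3, 1108 and 887 to 123, 182 and 199 CPM, adjusted p = 0.00187) and 3.34-fold (mbpb, adjusted p = 0.00908). The claudin genes cldnk, a marker of zebrafish myelinating glia, and CLDN19 were at 466, 1078, 869 and 1148 CPM against 161, 178 and 149 CPM (log2 fold change -2.45 ± 0.30 SE, adjusted p = 0.00225) and at 157, 341, 265 and 252 CPM against 49.9, 68.5 and 62.7 CPM (log2 fold change -2.07 ± 0.26 SE, adjusted p = 0.00275). EGR2, a transcription factor of Schwann cell myelination, was 2.84-fold lower (adjusted p = 0.0415). With 1 library left out EGR2 was called in 1 of 7 fits and mbpb in 5.

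Outside the lists, the rule for large changes brought up mag and NKX6-2, both known from glia. The myelin-associated glycoprotein gene mag was at 271, 543, 422 and 294 CPM in wild-type/heterozygous and 61.0, 70.7 and 87.7 CPM in mutants (log2 fold change -2.39 ± 0.28 SE, adjusted p = 0.00170). NKX6-2, a transcription factor of oligodendrocytes, was at 21.9, 44.3, 33.8 and 56.1 CPM against 6.68, 4.47 and 4.47 CPM (log2 fold change -2.91 ± 0.37 SE, adjusted p = 0.00283). Other falls had their lowest wild-type/heterozygous value in replicate 1 as well, such as zwi at 207, 451, 321 and 434 CPM against 47.5, 50.8 and 54.5 CPM (log2 fold change -2.79 ± 0.28 SE, adjusted p = 0.000776). RHBDL3, a rhomboid family gene, was at 71.3, 173, 136 and 128 CPM against 14.6, 14.7 and 21.1 CPM (log2 fold change -2.92 ± 0.31 SE, adjusted p = 0.00120). The gene cd59a, a complement regulator, was at 449, 1078, 922 and 1177 CPM against 117, 185 and 174 CPM (log2 fold change -2.51 ± 0.33 SE, adjusted p = 0.00347).

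Several pigment cell genes fell. Of 17 xanthophore and iridophore genes 5 were lower, against 1.61% of all genes, and none higher. All 5 are known from iridophores or shared pigment programs. The list median log2 fold change was -0.24. At an unadjusted p under 0.05, 6 of the 17 were lower (8.81% of all genes) and 3 higher (7.74% of all genes). DESeq2 called 6 lower (6.18% of all genes) and 1 higher (5.13% of all genes). GPNMB, a melanosomal glycoprotein, was at 914, 1209, 1291 and 1317 CPM in wild-type/heterozygous and 340.2, 193 and 437 CPM in mutants (log2 fold change -1.87 ± 0.27 SE, adjusted p = 0.00581). The purine enzyme gene pnp4a was at 404, 455, 508 and 936 CPM against 152, 112 and 235 CPM (log2 fold change -1.79 ± 0.35 SE, adjusted p = 0.0222). The gene ltk, the receptor kinase that specifies iridophores, was at 46.6, 57.4, 31.2 and 21.4 CPM against 7.98, 9.03 and 6.83 CPM (log2 fold change -2.30 ± 0.36 SE, adjusted p = 0.00798). ALX4 (ENSDARG00000088332) fell 3.45-fold (adjusted p = 0.00260) and TFEC 3.05-fold (adjusted p = 0.0438). ALX4 and GPNMB kept their calls in all leave-one-out fits.

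Xanthophore genes of the same list were not called. The pteridine enzyme gene gch2 was at 3682, 3929.7, 5624 and 4893 CPM in wild-type/heterozygous and 5076, 4798 and 5609 CPM in mutants (log2 fold change 0.19 ± 0.18 SE, adjusted p = 0.719). The gene aox5 was at 395, 391.7, 571 and 358 CPM against 524, 401 and 521 CPM (log2 fold change 0.17 ± 0.20 SE, adjusted p = 0.785). PAX7 (ENSDARG00000070818) was at 208, 268, 255 and 260.1 CPM against 340.1, 296 and 363 CPM (log2 fold change 0.43 ± 0.15 SE, adjusted p = 0.182). None of 12 melanophore genes was called by edgeR, though 7 were lower at an unadjusted p under 0.05 (8.81% of all genes). DESeq2 called 5 of the 12 lower (6.18% of all genes), and the median was -1.23. The melanin enzyme genes TYRP1 (ENSDARG00000056151) and DCT had log2 fold changes of -1.62 ± 0.42 and -1.44 ± 0.39 (SE, adjusted p = 0.0656 and 0.0793), pmela, of melanosome fibrils, of -1.21 ± 0.46 (SE, adjusted p = 0.215) and the regulator MITF (ENSDARG00000003732) of -0.50 ± 0.31 (SE, adjusted p = 0.494).

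Of 18 ear genes 3 were called higher, against 2.1% of all genes. TECTB, a tectorial membrane protein gene, was at 39.7, 22.7, 32.5 and 51.4 CPM in wild-type/heterozygous and 139.8, 132 and 66.1 CPM in mutants (log2 fold change 1.62 ± 0.32 SE, adjusted p = 0.0239). The otogelin gene OTOG rose 2.07-fold (adjusted p = 0.0412) and OTOGL was at 23.4, 15.9, 25.6 and 16.6 CPM against 81.1, 56.7 and 54.8 CPM (log2 fold change 1.66 ± 0.25 SE, adjusted p = 0.00637), the only one of the 3 called in all leave-one-out fits. The matricellular gene sparcl1 was the 1 of 18 called lower (1.61% of all genes). It was at 14.7, 13.1, 18.0 and 36.5 CPM against 4.20, 1.28 and 1.05 CPM (log2 fold change -3.24 ± 0.63 SE, adjusted p = 0.0222). The otolith matrix gene stm was not called, at 1592, 1512, 1698 and 991 CPM against 2243, 2437 and 1707 CPM (log2 fold change 0.56 ± 0.21 SE, adjusted p = 0.206).

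**Figure D4:**
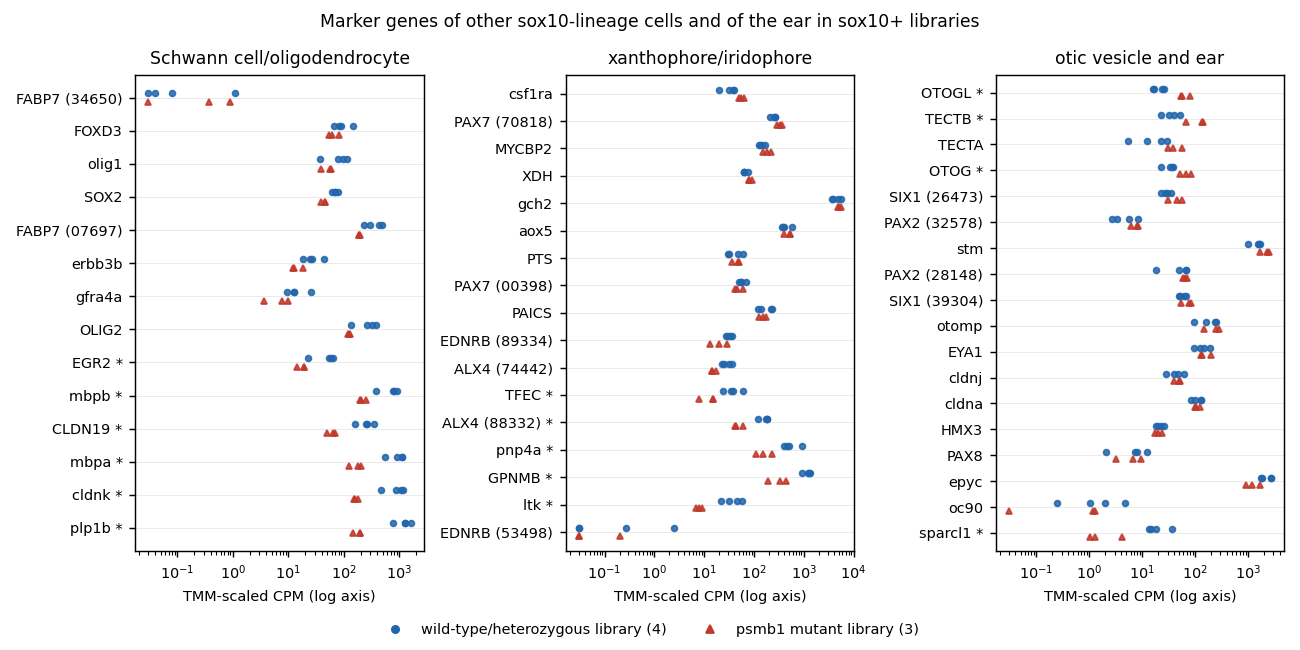
Levels of marker genes of myelinating glia, of xanthophores and iridophores and of the ear in single sox10+ libraries, as TMM-scaled CPM on a log axis, with genes sorted by log2 fold change, circles for the 4 wild-type/heterozygous and triangles for the 3 mutant libraries. An asterisk marks an adjusted p under 0.05 and values under 0.03 CPM are drawn at 0.03. The 6 called glial genes drawn and the 5 called pigment genes have every triangle left of every circle, as every gene called lower did.

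The neuron and retina, epidermis and muscle marker lists moved in part. Of 27 neuron and retina genes 5 were lower, against 1.61% of all genes, and none higher. ELAVL3, a pan-neuronal RNA-binding protein gene, was at 291, 331, 353 and 295 CPM in wild-type/heterozygous and 146, 163 and 132 CPM in mutants (log2 fold change -1.11 ± 0.15 SE, adjusted p = 0.00456). ELAVL4 fell 2.58-fold, and both STMN1 genes fell, ENSDARG00000033655 by 1.69-fold and ENSDARG00000004169 by 1.94-fold. Of the 5 only ELAVL3 was called in every leave-one-out fit.

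Of 22 epidermis genes 2 were called higher, against 2.1% of all genes, and none lower. They were the adhesion gene epcam and the claudin gene cldnb, and the list median was -0.11. Epithelial epcam was at 222, 191, 183 and 209 CPM in wild-type/heterozygous and 475, 468 and 462 CPM in mutants (log2 fold change 1.22 ± 0.14 SE, adjusted p = 0.00151). The gene cldnb was at 93.9, 105, 121 and 136 CPM against 302, 338 and 299 CPM (log2 fold change 1.46 ± 0.16 SE, adjusted p = 0.00156). Summed keratin and other epidermis markers overlapped, at 1792 to 4182 CPM in wild-type/heterozygous and 2590 to 3485 CPM in mutants. No muscle gene of 31 was called in edgeR, and DESeq2 called 4 lower (6.18% of all genes). At an unadjusted p under 0.05, 7 were lower (8.81% of all genes), and the median was -1.55. The sarcomeric actin gene actc1b ranged from 153 to 1042 CPM in wild-type/heterozygous and from 20.8 to 296 CPM in mutant libraries.

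Cell cycle genes were lower in 4 of 26 cases, against 1.61% of all genes. All 4 were subunits of the MCM helicase that opens replication origins. MCM3 was at 126, 113, 126 and 100.2 CPM in wild-type/heterozygous and 58.1, 57.7 and 69.8 CPM in mutants (log2 fold change -0.91 ± 0.17 SE, adjusted p = 0.0165). MCM4, MCM6 (ENSDARG00000057683) and MCM7 fell 1.57-fold, 1.95-fold and 1.74-fold, and PCNA, the replication clamp, had a log2 fold change of -0.74 ± 0.21 (SE, adjusted p = 0.0872). None of the 4 calls held in all leave-one-out fits. The list median was -0.66. At an unadjusted p under 0.05, 16 of the 26 were lower (8.81% of all genes) and 1 higher (7.74% of all genes). DESeq2 called 11 lower (6.18% of all genes) and none higher. Of 42 genes for the large ribosomal subunit none was called by edgeR or DESeq2 and none had an unadjusted p under 0.05, with a median of -0.43, and the same counts of 0 held for the blood and immune (10 genes) and endothelial (12 genes) lists. Among 13 lens genes edgeR called none and DESeq2 called 1, lower (6.18% of all genes). It was the 1 with an unadjusted p under 0.05 (8.81% of all genes lower).

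Outside the lists, the 15 largest rises among well-expressed genes with a gene symbol began with genes near zero in wild-type/heterozygous cells. The mitochondrial carrier gene slc25a24l had no read in any wild-type/heterozygous library and 7.67, 17.2 and 13.4 CPM in mutants, at least 260-fold higher against a floor of 3 reads per library (adjusted p = 0.00159). The olfactory receptor gene olfcs2 likewise had none and 1.78, 16.5 and 14 CPM, at least 218-fold higher (adjusted p = 0.00714). The ubiquitin-like modifier gene isg15 was at 0.456, 0, 0 and 0 CPM against 51.4, 56.1 and 66.0 CPM (log2 fold change 9.05 ± 1.11 SE, adjusted p = 0.00248). The gene caprin2, an RNA-binding protein gene, was at 0.793, 0, 0.0172 and 0 CPM against 17.3, 16.5 and 26.1 CPM (log2 fold change 6.65 ± 1.44 SE, adjusted p = 0.0347). With 1 library left out the fitted values ran from 8.60 to 14.84 for isg15, 6.21 to 11.34 for caprin2 and 8.23 to 12.75 for fam83fb, and caprin2 was called in 2 of 7 fits. As reads were so few in wild-type/heterozygous cells, these fitted folds depend on the prior count. Also in this set were fam83fb, ano9a, USH1C, acy3.1, SLC30A10, emb, gra and DPCD, with log2 fold changes from 3.21 (DPCD) to 8.65 (fam83fb). Of these, USH1C was called in 1 of 7 leave-one-out fits, gra in 2, and ano9a and SLC30A10 in 6.

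Rises at higher levels took in iron storage, vault and protein-turnover genes. The ferritin heavy chain-like genes fthl28 and fthl31 were at 9.39, 11.7, 4.30 and 10.0 CPM against 246, 243 and 305 CPM (log2 fold change 4.90 ± 0.32 SE, adjusted p = 0.000157) and 31.4, 37.4, 39.9 and 45.9 CPM against 192, 192 and 256 CPM (log2 fold change 2.46 ± 0.19 SE, adjusted p = 0.000346). MVP, the major vault protein gene, was at 50.3, 32.2, 25.4 and 16.7 CPM against 277, 236 and 256 CPM (log2 fold change 3.04 ± 0.32 SE, adjusted p = 0.00113). The gene aifm4, of the apoptosis-inducing factor family, was at 6.76, 10.2, 6.39 and 6.17 CPM against 111, 94.1 and 89.9 CPM (log2 fold change 3.74 ± 0.24 SE, adjusted p = 0.000157). The p97 tether gene aspscr1 was at 16.5, 25.5, 27.0 and 31.4 CPM against 149, 124 and 158 CPM (log2 fold change 2.52 ± 0.23 SE, adjusted p = 0.000498). ZFAND2B, a proteasome-associated zinc finger gene, was at 36.1, 32.4, 44.1 and 36.7 CPM against 144, 154 and 158 CPM (log2 fold change 2.02 ± 0.16 SE, adjusted p = 0.000421). The neurofilament gene nefma rose 19.7-fold (2.67, 7.33, 18.2 and 5.62 to 120.2, 189.9 and 190.4 CPM, adjusted p = 0.00289), unlike the neuronal genes called lower. NUCB1, the Hsp90 cochaperone gene NUDC, CIAPIN1 of iron-sulfur cluster assembly and ubl7b rose 4.42-fold, 4.25-fold, 4.22-fold and 3.80-fold.

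The largest falls outside the lists held photoreceptor, muscle and apolipoprotein genes whose wild-type/heterozygous libraries were uneven. ROM1, of photoreceptor discs, was at 2.87, 58.4, 2.87 and 1.62 CPM in wild-type/heterozygous and 0.0775, 0.247 and 0.0276 CPM in mutants (log2 fold change -7.11 ± 1.67 SE, adjusted p = 0.0483). The gene rbp3, a retinoid-binding protein gene, was at 20.5, 60.6, 20.8 and 13.1 CPM against 3.1, 1.78 and 5.71 CPM (log2 fold change -3.02 ± 0.62 SE, adjusted p = 0.0279). Both were highest in wild-type/heterozygous replicate 2, where the neuron and retina list was also highest. With 1 library left out ROM1 was called in 2 of 7 fits, with log2 fold changes of -8.26 to -4.37, and rbp3 in 3 of 7, and wild-type/heterozygous replicate 2 and each mutant library were among those whose loss ended both calls. The apolipoprotein gene apoa1b was at 257, 77.8, 60.9 and 15.7 CPM against 8.29, 8.21 and 2.65 CPM (log2 fold change -4.01 ± 0.88 SE, adjusted p = 0.0359). The gene apoa2 was at 111, 41.4, 36.0 and 10.4 CPM against 2.88, 3.19 and 3.41 CPM (log2 fold change -3.97 ± 0.70 SE, adjusted p = 0.0138). With 1 library left out apoa1b was called in 2 of 7 fits and apoa2 in 4 of 7. The myosin heavy chain genes myhb and myhz1.1l were at 179.7, 38.1, 32.1 and 45.9 CPM against 1.24, 2.47 and 3.09 CPM (log2 fold change -5.03 ± 0.74 SE, adjusted p = 0.00578) and 36.3, 21.8, 17.7 and 24.0 CPM against 2.50, 3.00 and 0.745 CPM (log2 fold change -3.58 ± 0.53 SE, adjusted p = 0.00605). The muscle list was highest in wild-type/heterozygous replicate 1 as well, and the part that photoreceptor or muscle cells in the sort had in these falls was not tested. CSRP1, a LIM-domain gene, had no library apart, at 9.19, 17.9, 16.0 and 13.6 CPM against 0.0155, 0.450 and 0.414 CPM (log2 fold change -5.58 ± 0.91 SE, adjusted p = 0.00933).

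The remaining falls were fxyd5, LGI2, DEPDC7, TLCD5, TMEM125, dhrs12la, c7b, timd4 and CAV2. Their log2 fold changes ran from -3.83 (fxyd5) to -2.48 (CAV2). Among them LGI2 was called in 4 of 7 leave-one-out fits, DEPDC7 in 5 and c7b in 6. TLCD5 had the smallest SE of the remaining falls, at 80.0, 137, 120.1 and 105 CPM in wild-type/heterozygous and 13.9, 14.5 and 13.9 CPM in mutants (log2 fold change -2.97 ± 0.22 SE, adjusted p = 0.000343). The caveolin gene CAV2 was at 111, 108, 95.8 and 158 CPM against 15, 20.4 and 28.3 CPM (log2 fold change -2.48 ± 0.27 SE, adjusted p = 0.00138). The complement gene c7b was at 104, 229, 113 and 184 CPM against 24.6, 15.8 and 40.9 CPM (log2 fold change -2.54 ± 0.39 SE, adjusted p = 0.00729). The gene timd4, a phosphatidylserine receptor gene, was at 73.2, 197, 103 and 149 CPM against 14.4, 27.4 and 25.9 CPM (log2 fold change -2.53 ± 0.37 SE, adjusted p = 0.00605).

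**Figure D5:**
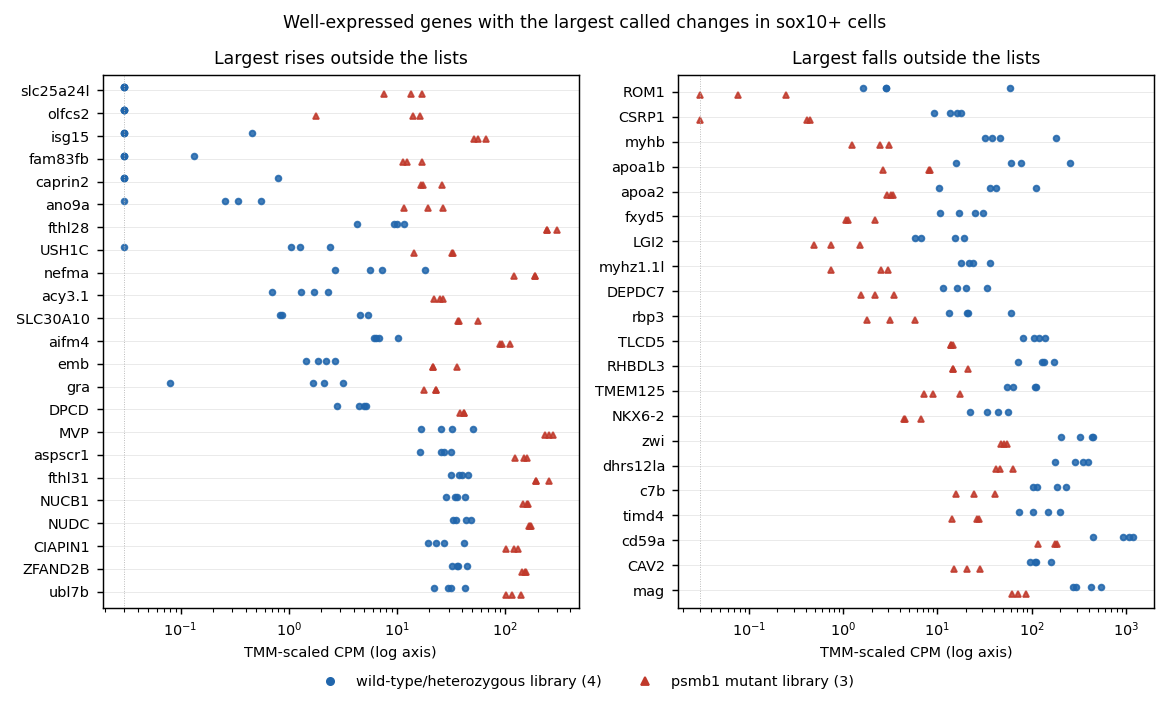
Levels of the genes outside the lists with the largest called changes in sox10+ cells, rises on the left and falls on the right, as TMM-scaled CPM on a log axis, with circles for the 4 wild-type/heterozygous and triangles for the 3 mutant libraries. Values under 0.03 CPM are drawn at the dotted line at 0.03. The groups of every gene shown lie apart, which the choice of these genes required.

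The change of a gene in sox10+ cells was set against its change in mylz2+ cells by the interaction of genotype and cell type, which was called for 301 of 23232 genes (1.3%). In mylz2+ cells 42 of the 43 proteasome subunit genes were higher in mutants (10.7% of all genes tested there), with a median log2 fold change of 1.43, and the 1 lower was PSMB1. Of the 43 only psma6l had an interaction call, and its wild-type/heterozygous counts in sox10+ cells were low. For the glial list, the xanthophore and iridophore list and the cartilage list, 1 of 16, 2 of 17 and none of 37 genes had such a call. Of these genes 12, 14 and 31 passed the low-count filter in mylz2+ cells. The list medians there were -0.24, 0.42 and 0.02, beside -1.33, -0.24 and -0.82 in sox10+ cells. The few interaction calls therefore do not show the same change in both cell types.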

How the data were processed

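RNA was taken from sorted cells, made into full-length cDNA (SMART-Seq HT) and sequenced as Nextera XT libraries. The deposited values were raw counts of reads per gene, with Ensembl identifiers, and the submitters' processing notes name STAR, GRCz11 and DESeq2, while versions, the counting tool and its strand setting are not given in the sources used here. Without strand, overlapping and antisense genes cannot be told apart, and counts of close paralogs may be split. The 7 sox10+ columns were matched to samples by their names, and 29201 of 32520 identifiers matched a symbol. The labels call the libraries biological replicates but do not give the clutch of each pool. The paper states that its experiments used siblings matched by clutch, without saying which libraries share one. The p-values measure the spread between these libraries.

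The main test was edgeR 4.0.16 (R 4.3.3) on the 7 libraries, with TMM factors, filterByExpr, the quasi-likelihood test and Benjamini-Hochberg adjustment over all 21476 genes that passed. SE was computed from the fold change and the F statistic. The script was tested on simulated data. The interaction of genotype and cell type was fitted over all 14 libraries. Alternatives were DESeq2 1.42.0, other scaling factors, low-count filters and cut-offs, a block for replicate number, and fits without each library in turn. Libraries of 54824619 to 72034939 reads put the level of 3 reads at 0.0416 to 0.0547 CPM, which covers counting error only.

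The members and gene lists were chosen with earlier results of these data known. Named were PSMB1, up to 8 members of each list (called ones first, by mean CPM), the 15 largest called rises and 15 largest falls outside the lists at 10 CPM or more with libraries that did not overlap between genotypes, and the 10 largest each way at 100 CPM or more. A planned promoter search was not run, as no promoter sequences were used here. Values of some listed genes are not reported here.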

Additional observations from a re-analysis of the deposited data

Results flagged for a closer look

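In 16 of 210 groups of 4 wild-type/heterozygous libraries that were tested, a single library stood apart from the other 3, where chance gives about 1 in 20. That rate need not hold for isg15, fam83fb, caprin2, psma6l and PSME2. Their other 3 libraries were at or near 0 CPM, so a few reads set a library apart. With these genes set aside the share of flagged groups was near 1 in 20, so each library named below may stand apart by chance. Wild-type/heterozygous replicate 2 was apart for the retinal genes ROM1 (58.4 CPM) and rbp3 (60.6 CPM), for the summed neuron and retina list (5482 CPM), and for psma6l (0.302 CPM), PSME2 (0.636 CPM) and aifm4 (10.2 CPM). Wild-type/heterozygous replicate 1 was apart for hsp70.3 (7253 CPM), myhb (179.7 CPM), isg15 (0.456 CPM) and caprin2 (0.793 CPM). Wild-type/heterozygous replicate 4 was apart for PHGDH (356 CPM), vcana (13.9 CPM), fam83fb (0.132 CPM) and the summed apoptosis and DNA damage list (2206 CPM), all high, and for HAPLN3 (79.7 CPM) and COL1A1 (1036 CPM), both low. Groups of 3 mutant libraries were not tested in this way.

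The change in sox10+ cells differed from that in mylz2+ cells, by edgeR's interaction test, for 13 of the 177 genes examined. Over all genes that test called 301 of 23232 (1.3%). Of the 177 genes 139 were called in sox10+ cells, and many were picked for those calls. The interaction uses the same sox10+ counts, so these shares cannot be compared. The values are the log2 change in sox10+ cells minus that in mylz2+ cells. The difference was 5.02 for psma6l, 4.45 for PSME1, 9.49 for slc25a24l, 1.93 for MVP, 1.40 for epcam and 2.41 for cldnb. It was -1.24 for PHGDH, -2.42 for EGR2, -8.54 for ltk, -7.15 for fxyd5 and -10.8 for LGI2. The last 3 sizes rest on very few reads in mylz2+ cells. There ltk and LGI2 did not pass the low-count filter of the mylz2+ fit, and fxyd5 had means of 0.125 CPM in wild-type/heterozygous and 1.23 CPM in mutants (adjusted p = 0.0749). The values for slc25a24l, psma6l and PSME1 rest on low or absent wild-type/heterozygous counts in sox10+ cells. For the neuronal genes the difference was -0.942 for ELAVL3 and -1.58 for ELAVL4.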

How the results depend on the processing

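The count of 797 called genes and that of 771 well-expressed ones were within 1.5 times of these values with RLE or upper-quartile factors, library totals or no low-count filter. They became 1290 and 1239 with at least 10 counts required in every library, 2443 and 2037 in DESeq2, and 288 and 287 at an adjusted p under 0.01. Leaving out 1 library gave 293 to 1018 and 289 to 952. Without mutant replicates 1, 3 and 4 the called genes numbered 293, 359 and 350, and 467 without wild-type/heterozygous replicate 2. The 41 called proteasome subunit genes were 39 to 41 in the leave-one-out fits. The 6 cartilage matrix genes called lower became 18 with the 10-count filter, 25 in DESeq2 and 2 at an adjusted p under 0.01, and ranged from 2 to 6 with 1 library left out. The 8 glial genes ranged from 6 to 10, a set of alternatives chosen after seeing the data. The 301 interaction calls became 1342 in DESeq2 and ranged from 150 to 443 with 1 library left out. The cause of these shifts was not tested.

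Between same-numbered libraries of the genotypes, the correlations of deviations from the genotype mean were 0.01, -0.04 and 0.06 for replicates 1, 3 and 4. No shared deviation was seen, which cannot establish that the libraries were unpaired, as the clutch of each is not given. With the replicate block the calls fell to 174 in all and 174 among well-expressed genes, 2 cartilage matrix genes and 46 interaction calls, and 34 proteasome and 6 glial genes were called. Replicate 2 has no mutant library, so its wild-type/heterozygous library adds nothing to the blocked contrast. The block also leaves fewer residual degrees of freedom. Calls lost in the blocked fit therefore cannot tell an effect of pairing from a loss of power. Of the other lists with calls, that fit called none of the 7 antioxidant, 4 apoptosis and DNA damage, 2 autophagy, 2 bone, 3 tendon, 4 cell cycle and 4 ear genes, nor the 1 ER stress and 2 integrated stress response genes. It called 2 chaperone genes in place of 15, 7 ubiquitin and p97 genes in place of 13, 4 activator genes in place of 6, 2 xanthophore and iridophore genes in place of 5, 1 neuron and retina gene in place of 5 and 1 epidermis gene in place of 2. For the blocked interaction fit, 1 mutant mylz2+ library has a title giving replicate 3 and a description giving M2, and the title was used. Of the 139 called genes among the 177 examined by name, 85 were called in every leave-one-out fit. The sign of the log2 fold change turned only for genes not called. With library totals it was 0.11 for hsp70l and 0.12 for MATN4. In fits with 1 library left out, PSMB1 ranged from -0.079 to 0.16, hsp70l from -0.40 to 0.21, MATN4 from -0.057 to 0.020 and BARX1 from -0.34 to 0.019.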
